A study of Mus musculus with 27 samples.

Results

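The genes described here are 8 of the 53801 genes in the deposited count table: the D cyclins Ccnd1, Ccnd2 and Ccnd3, the E cyclins Ccne1 and Ccne2, the kinases Cdk4 and Cdk6, and Cdkn1b, which encodes the inhibitor p27. They were chosen by name as the cyclins and kinases of G1 and were matched to the table by symbol through GENCODE M21. All 8 passed the filter on low counts, which left 18363 genes for testing. In mammalian cells D cyclins bind CDK4 and CDK6, and the complexes phosphorylate the retinoblastoma protein RB, which then releases E2F factors that switch on S phase genes. Cyclin E with CDK2 completes that step, and p27 binds and restrains the cyclin-CDK complexes. Mouse embryonic stem cells are known for a short G1 phase with abundant cyclin E activity, and ERK signalling is a known inducer of D cyclin transcription.

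The data are RNA sequencing counts from TX1072, a hybrid embryonic stem cell line of BL/6J by CAST-EiJ origin in which doxycycline induces Xist, the RNA that coats and silences an X chromosome. All cells carried SPEN, a repressor that Xist recruits, fused to an auxin-inducible degron. The SPOC line expressed BglG-GFP-SPOC, with the SPOC domain of SPEN, and the GFP line expressed BglG-GFP alone; BglG is a bacterial RNA-binding protein. In each line, Dox+Auxin cells were depleted of SPEN with auxin for 12 h, and both agents were then present for 24 h; Dox cells had doxycycline (1 ug/mL, 24 h) without auxin, and untreated cells had neither agent. All 6 groups grew with serum, LIF and the 2i inhibitors CHIR99021 (3 uM), which inhibits GSK3, and PD0325901 (1 uM), which inhibits the ERK kinase MEK. The SPOC groups held 5 libraries each and the GFP groups 4, while the design text speaks of 4 biological replicates. Each construct is 1 line, so construct and line cannot be told apart, and no cells without the degron were given auxin, so loss of SPEN and exposure to auxin cannot be told apart.

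Total counts were 28936459 to 45489094 per library. Xist stood at 290 to 415 CPM (counts scaled to library size) in SPOC Dox+Auxin, 308 to 458 in SPOC Dox and 1.03 to 1.69 in 4 of the SPOC untreated libraries, and at 178 CPM in SPOC untreated replicate 2. In the GFP line Xist was at 382 to 630 CPM with Dox+Auxin, 747 to 918 with Dox and 5.43 to 7.82 untreated. Spen RNA was higher with Dox+Auxin in both lines, at 973 to 1242 CPM in SPOC and 634 to 1164 in GFP. It was at 329 to 369 CPM in SPOC Dox and 326 to 358 in SPOC untreated, against 178 to 214.5 in GFP Dox and 158 to 187 in GFP untreated. Whether reads of the SPOC construct were counted as Spen was not tested. The degron acts on the protein, so this RNA does not check its loss. The defining markers of embryonic stem cells, Pou5f1, Sox2 and Nanog among 10, summed to 6092 CPM or more in every library. Without SPOC untreated replicate 2 no member's call changed in any of the comparisons that use it.

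Per length of annotated exon the members spanned a wide range. The CPM per kilobase of exon (RPKM, computed here from counts and exon lengths) had a median over the 27 libraries of 139 for Cdk4, 77.1 for Ccne1, 63.9 for Ccnd3, 24.7 for Ccnd1, 11.2 for Ccne2, 7.80 for Cdkn1b, 4.66 for Cdk6 and 0.292 for Ccnd2. This order held in 27 of 27 libraries, and the only neighbours whose ranges over libraries overlapped were Ccne2 (lowest 9.90 RPKM) and Cdkn1b (highest 9.94 RPKM). The length merges all annotated exons of a gene (8775 bases for Ccnd3 and 2662 for Ccne1), not those of the transcripts expressed. The order between genes depends on it: in CPM, Ccnd3 (377 to 613) lay above Ccne1 (193 to 225). The members also differed in how far they moved. The ratio of the highest to the lowest group mean was 5.67 for Ccnd2, against 1.60 for Ccnd1, 1.56 for Ccnd3 and 1.10 for Ccne1. In such bulk samples a lower level per cell and a smaller share of cells in G1 cannot be told apart.

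**Figure D1:**
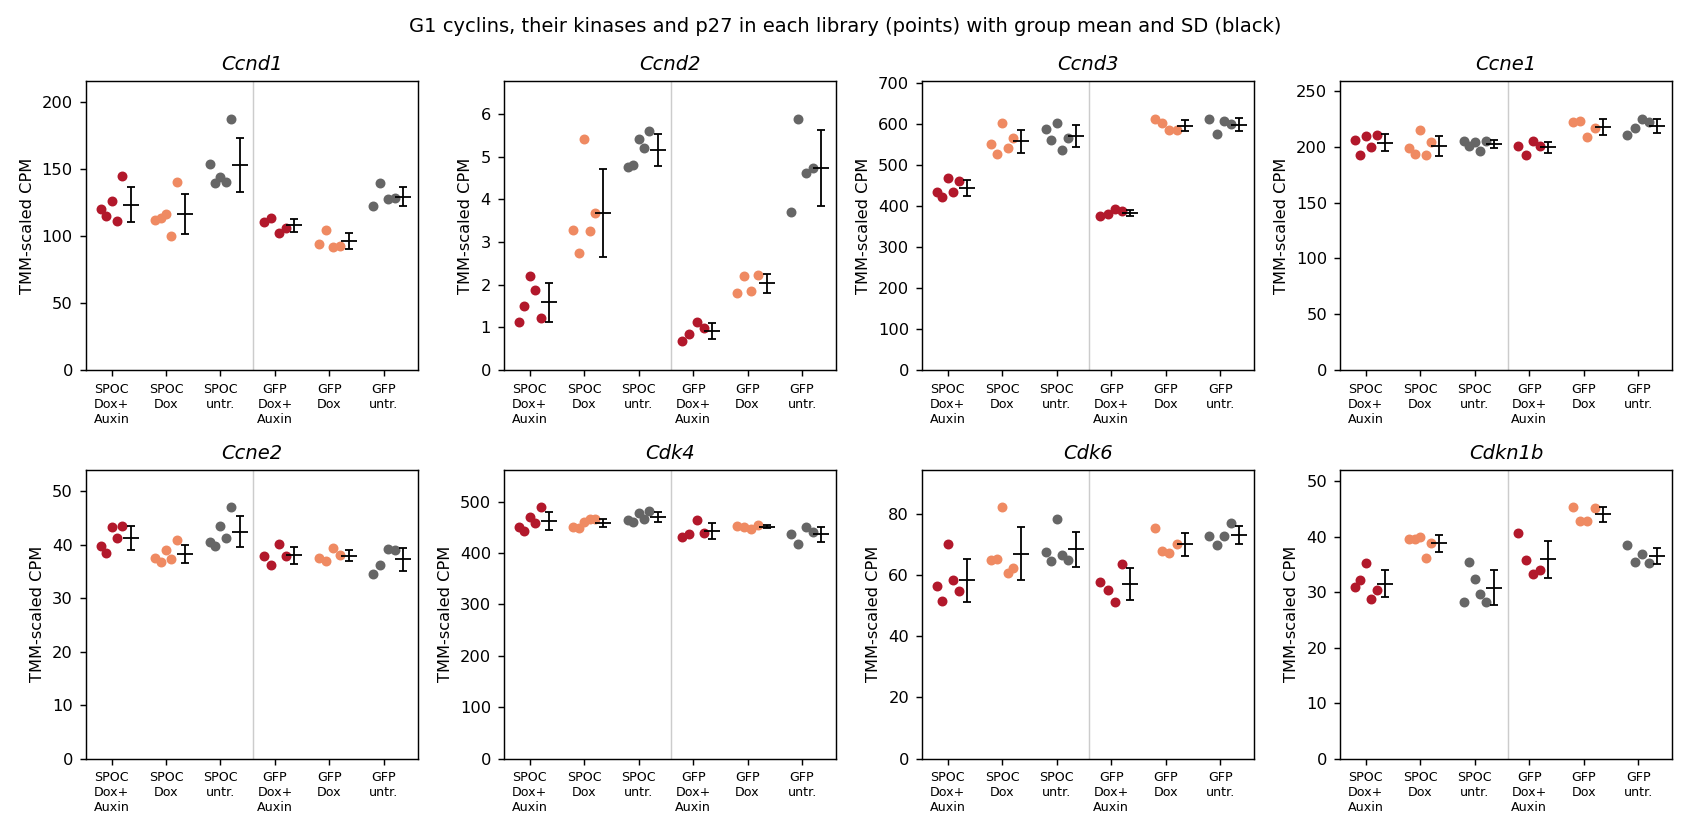
Level of each of the 8 genes in TMM-scaled CPM (y axis, from 0) in every library (points) of the 6 groups (x axis), with the group mean and SD in black. Ccnd3 is low in both Dox+Auxin groups (377 to 468 CPM), Ccnd2 is lowest in GFP Dox+Auxin (0.689 to 1.12 CPM), and Cdk4 is nearly level.

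Tests were those of edgeR (quasi-likelihood), p-values were adjusted by Benjamini-Hochberg over all 18363 genes, and a gene was called at an adjusted p of 0.05. With Dox+Auxin against untreated cells, 4 members fell and 0 rose in the SPOC line, where 33.3% of all genes were called (16.7% higher and 16.6% lower), and 5 fell and 0 rose in the GFP line, where 38.2% were called (19.9% higher and 18.4% lower). The median log2 fold change of the 8 members was -0.13 in SPOC and -0.20 in GFP, against -0.01 and -0.003 over all genes. Set against Dox, Dox+Auxin gave 3 members that fell and 0 that rose in SPOC (32.0% of all genes called, 16.6% higher and 15.4% lower) and 5 that fell and 0 that rose in GFP (47.6% called, 24.7% higher and 22.9% lower), with member medians of -0.10 and -0.21 and all-gene medians of -0.01 and 0.004. In Dox against untreated cells, 1 member rose and 3 fell in SPOC (13.5% of all genes called, 6.16% higher and 7.33% lower), and 1 rose and 2 fell in GFP (20.9% called, 10.1% higher and 10.8% lower), with member medians of -0.04 and -0.01 and all-gene medians of -0.001 and -0.0009. The members' median line by treatment term was 0.09 for Dox+Auxin against untreated, 0.07 for Dox+Auxin against Dox and 0.01 for Dox against untreated, with all-gene medians of -0.01, -0.01 and 0.002. The comparisons within a line share libraries and are not independent of each other.

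Ccnd3 (ENSMUSG00000034165, chr17:47505051-47599691, GRCm38) encodes cyclin D3 and was the most abundant D cyclin transcript, with 61.5% to 77.6% of the summed D cyclin RPKM in every library. It was lower wherever auxin was given and level with doxycycline alone. Its level was 434, 423, 468, 434 and 461 CPM in SPOC Dox+Auxin, 552, 527, 603, 542 and 566 CPM in SPOC Dox, and 589, 560.5, 603, 537 and 567 CPM in SPOC untreated libraries. The Dox+Auxin libraries were all below those of both other groups, which overlapped each other. In the GFP line it was at 377, 380.1, 393 and 387 CPM with Dox+Auxin, 612, 603, 586 and 586 CPM with Dox, and 613, 576, 607 and 599.8 CPM untreated. The gap was wider there, and again the Dox and untreated libraries overlapped.

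The log2 fold change of Ccnd3 with Dox+Auxin against untreated cells was -0.36 ± 0.03 (SE) in SPOC (adjusted p = 1.3e-09) and -0.64 ± 0.04 in GFP (adjusted p = 6.5e-14). Against Dox it was -0.33 ± 0.03 in SPOC (adjusted p = 8.1e-09) and -0.64 ± 0.04 in GFP (adjusted p = 3.3e-14). With Dox against untreated cells it was -0.03 (95% interval -0.10 to 0.03) in SPOC and -0.01 (-0.08 to 0.07) in GFP. The smaller decrease in SPOC held in the test of the difference itself: the line by treatment term was 0.28 ± 0.05 against untreated (adjusted p = 0.0036; 1 of 8 members called, and 2.4% of all genes, 1.2% higher and 1.2% lower) and 0.31 ± 0.05 against Dox (adjusted p = 3.2e-04; 2 of 8 members called, and 8.14% of all genes, 3.49% higher and 4.65% lower). With Dox+Auxin, Ccnd3 was 0.21 ± 0.04 higher on the log2 scale in SPOC than in GFP (adjusted p = 8.5e-05). These calls held without any 1 library. Exons of Bysl on the other strand overlap 361 bases of Ccnd3, at 3473 to 5453 counts per library, and no source used here says whether reads were counted by strand.

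Ccnd2 (ENSMUSG00000000184, chr6:127125162-127152193) encodes cyclin D2, a D cyclin better known from gonadal and lymphoid cells, and was the least abundant member, with 26 to 270 counts per library. It fell furthest. SPOC Dox+Auxin libraries held 1.13, 1.49, 2.20, 1.87 and 1.21 CPM, SPOC Dox libraries 3.29, 2.75, 5.42, 3.25 and 3.67 CPM, and SPOC untreated libraries 4.76, 4.81, 5.42, 5.21 and 5.60 CPM. The Dox+Auxin group stood below both others, while Dox replicate 3 reached the level of untreated cells. GFP Dox+Auxin libraries held 0.689, 0.839, 1.12 and 0.994 CPM, GFP Dox libraries 1.81, 2.21, 1.86 and 2.24 CPM, and GFP untreated libraries 3.71, 5.89, 4.61 and 4.75 CPM. In GFP the 3 groups did not overlap.

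The log2 fold change of Ccnd2 with Dox+Auxin against untreated cells was -1.70 ± 0.17 in SPOC (adjusted p = 5.4e-09) and -2.38 ± 0.20 in GFP (adjusted p = 1.7e-10). Against Dox, the Dox+Auxin value was -1.21 ± 0.17 in SPOC (adjusted p = 2.9e-06) and -1.16 ± 0.23 in GFP (adjusted p = 8.5e-05). Doxycycline alone gave -0.48 ± 0.15 in SPOC (adjusted p = 0.032) and -1.22 ± 0.18 in GFP (adjusted p = 5.6e-06). The SPOC call with Dox was lost without any 1 of Dox replicates 1, 2, 4 and 5 or untreated replicates 3, 4 and 5 (adjusted p 0.058 to 0.11). The line by treatment terms were 0.74 ± 0.24 for Dox against untreated (adjusted p = 0.31), 0.68 ± 0.27 for Dox+Auxin against untreated (adjusted p = 0.18) and -0.06 ± 0.30 for Dox+Auxin against Dox (adjusted p = 0.94), so a difference in response between the lines did not pass for this gene. Its level did differ between lines after treatment: SPOC cells were 0.86 ± 0.18 above GFP cells on the log2 scale with Dox (adjusted p = 0.0019) and 0.80 ± 0.22 above them with Dox+Auxin (adjusted p = 0.0086), while untreated cells differed by 0.12 (-0.19 to 0.42). Both antisense genes annotated across Ccnd2 had 0 to 1 counts per library.

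Some markers of embryonic stem cells and of other cell types were called with the same treatment. Over all genes, 33.3% were called in SPOC and 38.2% in GFP with Dox+Auxin against untreated cells, and 32.0% and 47.6% against Dox. The summed level of 10 stem cell markers was 6351 to 6893 CPM in SPOC Dox+Auxin, 6816 to 7252 in SPOC Dox and 6690 to 7077 in SPOC untreated libraries, which overlapped, and 6092 to 6292, 6870 to 7076 and 6550 to 6772 CPM in GFP, where Dox+Auxin lay below both others. With Dox+Auxin against untreated cells 2 of the 10 rose and 3 fell in SPOC, and 1 rose and 6 fell in GFP; against Dox, 1 rose and 6 fell in SPOC and 1 rose and 7 fell in GFP. Tdgf1 fell most against untreated cells, by 0.49 in SPOC (adjusted p = 7.7e-05) and by 0.45 in GFP (adjusted p = 4.8e-04). With Dox+Auxin 6 of the 10 were higher in SPOC than in GFP and 0 lower, where 24.6% of all genes were called (11.2% higher and 13.5% lower). The summed level of 8 fibroblast markers was 25.2 to 31.8 CPM in SPOC Dox+Auxin, 32.2 to 38.0 in SPOC Dox and 30.9 to 35.9 in SPOC untreated libraries; in GFP it was 27.1 to 29.0, 36.0 to 39.1 and 36.8 to 37.5 CPM in the same treatments. Of 4 such markers tested, 2 fell and 0 rose with Dox+Auxin against untreated cells in each line: Col1a2 and Fbn1 in SPOC, and Col1a2 and Col1a1 in GFP. Thy1 (338 to 765 counts per library), Col1a1 (253 to 588), Col1a2 (38 to 290) and Fbn1 (51 to 136) were detected in every library, while Dcn had 0 to 6 counts and Col3a1, Postn and Lum were at 0 in 20, 21 and 15 of 27 libraries and never above 3 counts. The summed level of 7 trophoblast markers was 111 to 179 CPM in SPOC Dox+Auxin, 81.7 to 126 in SPOC Dox and 105 to 143.5 in SPOC untreated libraries, and 172 to 179, 86.0 to 88.9 and 94.7 to 102 CPM in GFP, with 1 of 6 tested markers called higher in SPOC and 2 of 6 in GFP with Dox+Auxin against untreated cells. Tfap2c averaged 106 ± 23 CPM with Dox+Auxin and 69.9 ± 14.7 untreated in SPOC (adjusted p = 0.0052), and 129 ± 5.3 and 61.2 ± 4.5 CPM in GFP (adjusted p = 4.0e-05). Cdx2, a further trophoblast factor, rose against untreated cells in GFP, by 0.79 ± 0.19 (adjusted p = 0.0025), and against Dox in both lines. With Dox against untreated cells it fell, by 0.76 in SPOC (adjusted p = 0.0076) and by 0.60 in GFP (0.041). In SPOC it averaged 18.2 CPM with Dox+Auxin, 9.44 with Dox and 16.0 untreated, and was not called against untreated cells. Eomes, Krt8 and Krt18 were not called against untreated cells in either line. In that comparison the 6 tested trophoblast markers had a median log2 fold change of -0.20 in SPOC and 0.11 in GFP. With both directions counted together, their calls there did not exceed the shares over all genes. All of these calls were higher, where 16.7% of all genes were called higher in SPOC and 19.9% in GFP. Elf5 and Hand1 had 1 to 11 and 1 to 14 counts per library. The summed level of 7 neural markers was 215 to 285 CPM in SPOC Dox+Auxin, 157 to 200 in SPOC Dox and 161 to 211 in SPOC untreated libraries, and 240 to 255, 172 to 200.5 and 158 to 175 CPM in GFP; that of 8 primitive endoderm markers was 133 to 200, 124 to 154 and 130 to 160 CPM in SPOC and 155 to 194.5, 122 to 146.5 and 125 to 149 CPM in GFP. With Dox+Auxin against untreated cells, 3 of 6 tested neural markers rose and 2 fell in SPOC (median log2 fold change 0.23). In GFP 2 rose and 2 fell (median -0.23). Nes rose by 0.85 in SPOC (adjusted p = 4.8e-12) and by 1.13 in GFP (5.7e-14). Pax6 (6 to 83 counts per library) rose by 1.29 and 2.17, and Sox1 (42 to 153 counts) fell by 0.60 and 1.07. The primitive endoderm sum was mostly Col4a1, with a median over libraries of 129 CPM, and Dab2 came next at 5.03 CPM. With Dox+Auxin against untreated cells, 1 of 7 tested endoderm markers rose and 1 fell in SPOC (median log2 fold change -0.15). In GFP 1 rose and 0 fell (median 0.07). Col4a1 was the marker that rose in both lines. Gata6 fell in SPOC by 1.02 (adjusted p = 0.0046), at means of 0.291 and 0.593 CPM. The part of these markers in the results of Ccnd2, Ccnd3 and the other members was not tested.

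The genes whose profile over the 27 libraries came closest to that of Ccnd2, by the root mean square difference of gene-centred log2 CPM among 14208 genes, were Ucma (0.29), Ptprd (0.44) and Evx1 (0.46). Ucma averaged 1.45 ± 0.35, 2.87 ± 0.39 and 3.78 ± 0.66 CPM in SPOC Dox+Auxin, Dox and untreated libraries (SD, n = 5 each). In GFP libraries of the same treatments it averaged 0.854 ± 0.162, 1.90 ± 0.20 and 3.19 ± 0.06 CPM (SD, n = 4 each). Ccnd2 was the only member with group means far enough apart, at least 2 times, for this search.

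Ccnd1 (ENSMUSG00000070348, chr7:144929931-144939925) encodes cyclin D1, a known target of growth factor and ERK signalling. Unlike Ccnd3 it was lower with doxycycline alone. Its level was 120.2, 115, 126, 111 and 144 CPM in SPOC Dox+Auxin, 112, 113, 116, 100.2 and 140.1 CPM in SPOC Dox and 154, 139, 144, 140.2 and 187 CPM in SPOC untreated libraries. Replicate 5 was the highest in each SPOC group, and its Dox and Dox+Auxin values reached those of untreated replicates. In GFP it was at 110.2, 113, 102 and 106 CPM with Dox+Auxin, 94.2, 105, 91.7 and 92.7 CPM with Dox and 122, 139, 127 and 128 CPM untreated. The untreated GFP libraries were all above those of both treatments.

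Ccnd1 had a log2 fold change with Dox against untreated cells of -0.39 ± 0.08 in SPOC (adjusted p = 0.0023) and -0.43 ± 0.09 in GFP (adjusted p = 0.0017), with a line by treatment term of 0.04 (-0.21 to 0.28; 0 of 8 members called, 3 at an unadjusted p of 0.05, and 0.24% of all genes called, 0.229% higher and 0.0109% lower). For Dox+Auxin against untreated it was -0.31 ± 0.08 in SPOC (adjusted p = 0.0059) and -0.26 ± 0.09 in GFP (adjusted p = 0.032). The GFP call was lost without any 1 of Dox+Auxin replicates 3 and 4 or untreated replicates 2, 3 and 4 (adjusted p 0.0502 to 0.097) and with no filter on low counts (0.061). Between Dox+Auxin and Dox neither line passed, at 0.08 (-0.08 to 0.25) in SPOC and 0.17 (-0.02 to 0.36) in GFP; the GFP value passed when only the compared groups were fitted (0.15, adjusted p = 0.014). The gene that the annotation names LTO1, on the other strand, overlaps 1100 exon bases of Ccnd1, at 424 to 733 counts per library against 2902 to 6383 for Ccnd1.

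**Figure D2:**
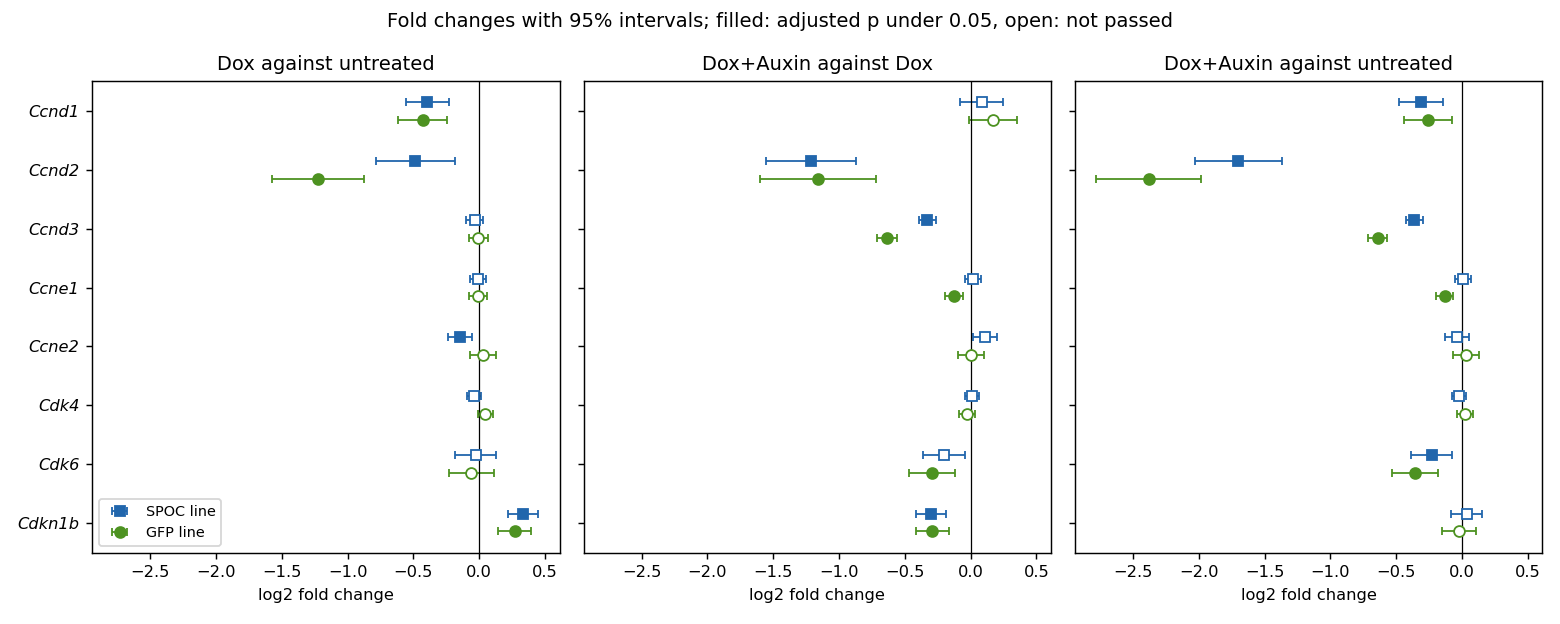
Log2 fold change (x axis) of each gene with its 95% interval, for 3 treatment comparisons in the SPOC line (blue squares, upper) and the GFP line (green circles, lower); filled symbols passed an adjusted p of 0.05. Ccnd3 moves in both comparisons with auxin and not with Dox alone, and Ccnd1 moves against untreated cells. Cdkn1b rises with Dox against untreated cells (0.33 in SPOC and 0.27 in GFP). It falls with Dox+Auxin against Dox (-0.30 and -0.29) and is level with Dox+Auxin against untreated cells.

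Summed over the 3 D cyclins, RPKM averaged 77.0 ± 4.6 in SPOC Dox+Auxin, 88.7 ± 5.3 in SPOC Dox and 98.1 ± 5.4 in SPOC untreated libraries (SD, n = 5 each). In GFP the sums averaged 66.8 ± 0.4, 88.6 ± 2.4 and 96.2 ± 0.4 RPKM in the same treatments (SD, n = 4 each). The share of Ccnd1 in the GFP sum was 34.3% ± 1.4 with Dox+Auxin, against 23.0% ± 1.0 with Dox and 28.5% ± 1.7 untreated. Ccnd2 made up at most 0.653% of the sum in any library. The sum of D cyclins over that of E cyclins averaged 0.871 in SPOC Dox+Auxin (0.843 to 0.911), 1.03 in SPOC Dox (1.00 to 1.07) and 1.11 in SPOC untreated libraries (1.07 to 1.16), and 0.778 (0.752 to 0.815), 0.956 (0.940 to 0.965) and 1.04 (1.01 to 1.08) in the same treatments in GFP. In both lines the Dox+Auxin libraries lay below all others of that line, and no test was made of this ratio. Its level depends on the exon lengths used, which were the same for every library.

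**Figure D3:**
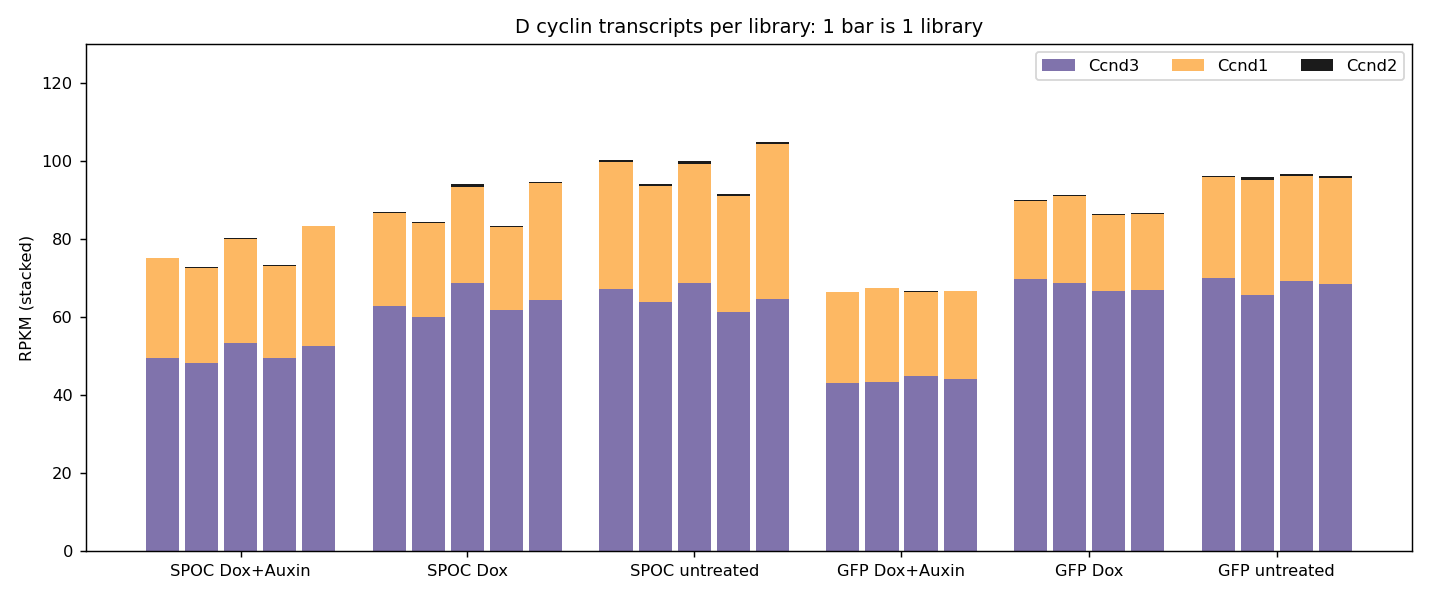
Stacked RPKM of Ccnd3, Ccnd1 and Ccnd2 (y axis) in each library (1 bar each), by group (x axis). The bars of GFP Dox+Auxin end at 66.4 to 67.4 RPKM and those of GFP untreated at 95.8 to 96.7 RPKM; Ccnd2 is barely visible.

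The E cyclins moved little. Ccne1 (ENSMUSG00000002068, chr7:38097984-38107534), which encodes cyclin E1, the activator of CDK2, averaged 204 ± 7.4 CPM in SPOC Dox+Auxin, 201 ± 9.2 in SPOC Dox and 202.5 ± 3.9 in SPOC untreated libraries (SD, n = 5 each). In the GFP line it was at 200.5, 193, 205 and 200.4 CPM with Dox+Auxin, 222, 223, 209 and 216 CPM with Dox and 211, 217, 225 and 222 CPM untreated. The 4 GFP Dox+Auxin libraries were below the other 8. Its log2 fold change with Dox+Auxin against untreated cells was 0.01 (-0.05 to 0.07) in SPOC and -0.13 ± 0.03 in GFP (adjusted p = 0.0027), and against Dox it was 0.02 (-0.04 to 0.08) in SPOC and -0.13 ± 0.03 in GFP (adjusted p = 0.0032). The line by treatment term against Dox was 0.15 ± 0.05 (adjusted p = 0.0471) and was lost without any 1 of GFP Dox+Auxin replicates 1 and 2, GFP Dox replicates 1, 2 and 4, SPOC Dox+Auxin replicates 1, 3, 4 and 5 or SPOC Dox replicates 1, 2 and 4 (adjusted p 0.0507 to 0.11), with no filter on low counts (0.0512) and when only the compared groups were fitted (0.082).

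Ccne2 (ENSMUSG00000028212, chr4:11191351-11204779), which encodes cyclin E2, lay between 34.6 and 47.0 CPM in all libraries. It passed in 1 treatment comparison, SPOC Dox against untreated, at -0.15 ± 0.05 (adjusted p = 0.032), with 37.5, 36.7, 39.1, 37.2 and 40.9 CPM in Dox libraries and 40.6, 39.8, 43.5, 41.2 and 47.0 CPM in untreated ones. The 2 groups overlapped, and the call was lost without any 1 of Dox replicates 1, 2 and 4 or untreated replicates 3 and 5 (adjusted p 0.066 to 0.15) and when only the compared groups were fitted (0.059). Against Dox, Ccne2 in SPOC Dox+Auxin did not pass, at 0.11 (0.02 to 0.20; adjusted p = 0.074), but passed without Dox replicate 5 (0.037) or Dox+Auxin replicate 2 (0.038). The comparison of Dox with untreated cells in GFP gave 0.03 (-0.07 to 0.13). Ints8, on the other strand, overlaps 609 exon bases of Ccne2 and had 2490 to 4498 counts per library.

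Cdk4 (ENSMUSG00000006728, chr10:127063534-127067920), the kinase partner of the D cyclins, did not pass in any treatment comparison. Its group means were 462 ± 18, 458 ± 8.2 and 470.4 ± 9.3 CPM in SPOC Dox+Auxin, Dox and untreated libraries (SD, n = 5 each) and 443 ± 15, 451 ± 2.8 and 436 ± 15 CPM in GFP (SD, n = 4 each). The 95% intervals of its log2 fold changes ran from -0.09 at the lowest to 0.11 at the highest over the 6 treatment comparisons within lines. Tspan31, on the other strand, overlaps 641 exon bases of Cdk4, at 1184 to 1950 counts per library.

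Cdk6 (ENSMUSG00000040274, chr5:3341485-3531008) encodes the other D cyclin kinase and was lower with Dox+Auxin. It was at 56.3, 51.5, 70.1, 58.4 and 54.9 CPM in SPOC Dox+Auxin, 64.8, 65.2, 82.1, 60.8 and 62.2 CPM in SPOC Dox and 67.6, 64.6, 78.2, 66.4 and 65.0 CPM in SPOC untreated libraries. Replicate 3 was the highest in each SPOC group, and Dox+Auxin overlapped the other groups through it. GFP libraries held 57.9, 55.3, 51.3 and 63.7 CPM with Dox+Auxin, 75.4, 67.9, 67.1 and 70.1 CPM with Dox and 72.7, 69.9, 72.7 and 77.0 CPM untreated, with no overlap between Dox+Auxin and the rest. The log2 fold change with Dox+Auxin against untreated cells was -0.23 ± 0.08 in SPOC (adjusted p = 0.029) and -0.36 ± 0.09 in GFP (adjusted p = 0.0023). Against Dox it was -0.20 ± 0.08 in SPOC (adjusted p = 0.055) and -0.30 ± 0.09 in GFP (adjusted p = 0.0077). The SPOC call against untreated cells was lost without any 1 of Dox+Auxin replicates 1, 2 and 5 or untreated replicate 3 (adjusted p 0.06 to 0.11) and with no filter on low counts (0.079). The SPOC value against Dox passed with DESeq2 (adjusted p = 0.038), with a filter at a mean of 1 CPM (0.038) and with a block for replicate number (5.1e-05). It also passed without Dox replicate 4 or 5 or Dox+Auxin replicate 3 (adjusted p 0.005 to 0.044). The line by treatment terms did not pass, at 0.13 (-0.11 to 0.36) against untreated and 0.09 (-0.14 to 0.33) against Dox.

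Both kinase genes carry the E-box CACGTG, the letters that MYC binds as a dimer with MAX, near their starts, and the Ccnd3 windows do not. The 300-base promoter windows from RefSeq (GRCm38.p6) are shown for the 2 kinases, of which Cdk4 was level and Cdk6 was lower, and for Ccnd3, which was lower in both lines; capitals mark CACGTG, which reads the same on both strands.
Cdk4 promoter, chr10:127063285-127063584, plus strand: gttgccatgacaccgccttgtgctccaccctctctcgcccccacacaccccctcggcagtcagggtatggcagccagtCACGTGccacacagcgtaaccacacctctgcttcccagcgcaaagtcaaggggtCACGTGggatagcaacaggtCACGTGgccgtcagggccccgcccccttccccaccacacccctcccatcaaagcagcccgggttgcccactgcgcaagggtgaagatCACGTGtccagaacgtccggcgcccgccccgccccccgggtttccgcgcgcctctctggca
Cdk6 promoter, chr5:3343643-3343942, plus strand: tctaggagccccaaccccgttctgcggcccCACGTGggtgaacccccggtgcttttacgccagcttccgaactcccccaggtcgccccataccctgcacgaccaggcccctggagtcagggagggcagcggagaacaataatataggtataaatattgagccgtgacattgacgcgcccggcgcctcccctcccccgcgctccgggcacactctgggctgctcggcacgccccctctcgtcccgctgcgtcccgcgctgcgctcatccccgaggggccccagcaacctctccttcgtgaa
Ccnd3 promoter window upstream, chr17:47504801-47505100, plus strand: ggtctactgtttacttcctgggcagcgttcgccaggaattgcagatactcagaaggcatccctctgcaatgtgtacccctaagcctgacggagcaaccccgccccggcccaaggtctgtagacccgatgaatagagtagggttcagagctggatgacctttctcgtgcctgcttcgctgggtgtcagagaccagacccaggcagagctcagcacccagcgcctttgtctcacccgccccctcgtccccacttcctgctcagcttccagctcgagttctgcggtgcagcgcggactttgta
Ccnd3 promoter window downstream, chr17:47593217-47593516, plus strand: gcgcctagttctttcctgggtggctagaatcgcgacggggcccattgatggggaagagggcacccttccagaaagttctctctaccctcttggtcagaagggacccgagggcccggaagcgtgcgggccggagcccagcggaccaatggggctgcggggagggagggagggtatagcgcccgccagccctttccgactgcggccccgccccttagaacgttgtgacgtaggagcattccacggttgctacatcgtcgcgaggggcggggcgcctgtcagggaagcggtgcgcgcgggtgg
The windows of 5 members matched the table, Ccnd3 with 2 of them, and Ccnd1, Ccnd2 and Ccne2 had no match. Cdk4 held 4 copies of CACGTG and Cdk6 held 1. Of all 32851 promoter windows, 7.15% held at least 1 copy and 8 held 4 or more. The letters TTTCCCGC or TTTGGCGC, read on both strands as E2F sites, were in 0 of the members' windows and in 1.56% of all, and CTTTGA, a TCF/LEF core, was in that of Cdk4 alone and in 16.0% of all. A match of letters describes these windows and shows no binding.

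Cdkn1b (ENSMUSG00000003031, chr6:134920401-134925513), the p27 gene, was the only member to rise. It was at 31.0, 32.1, 35.2, 28.7 and 30.4 CPM in SPOC Dox+Auxin, 39.5, 39.6, 39.9, 36.1 and 38.8 CPM in SPOC Dox and 28.2, 35.5, 32.3, 29.6 and 28.2 CPM in SPOC untreated libraries. In GFP it was at 40.5, 35.9, 33.2 and 33.9 CPM with Dox+Auxin, 45.2, 42.8, 42.8 and 45.1 CPM with Dox and 38.5, 35.5, 36.8 and 35.2 CPM untreated. In each line the Dox libraries were above all others. Its log2 fold change with Dox against untreated cells was 0.33 ± 0.06 in SPOC (adjusted p = 1.6e-04) and 0.27 ± 0.06 in GFP (adjusted p = 0.0024). Against Dox, the Dox+Auxin value was -0.30 ± 0.06 in SPOC (adjusted p = 2.0e-04) and -0.29 ± 0.06 in GFP (adjusted p = 4.0e-04). With Dox+Auxin against untreated cells neither line passed, at 0.03 (-0.08 to 0.15) in SPOC and -0.02 (-0.15 to 0.10) in GFP, and the line by treatment terms were -0.01 to 0.06.

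The lines also differed before and after treatment. In untreated cells 2 members were higher and 2 lower in SPOC than in GFP (11.6% of all genes called, 5.79% higher and 5.77% lower): Ccne2 (0.19 ± 0.05, adjusted p = 0.014) and Cdk4 (0.11 ± 0.03, adjusted p = 0.014) were higher, and Cdkn1b (-0.25 ± 0.06, adjusted p = 0.011) and Ccne1 (-0.11 ± 0.03, adjusted p = 0.024) were lower. With Dox 2 were higher and 1 lower (10.7% called, 5.36% higher and 5.33% lower): Ccnd2 as above, Ccnd1 (0.28 ± 0.09, adjusted p = 0.0487) and Ccne1 (-0.12 ± 0.03, adjusted p = 0.019). Cdkn1b with Dox was at -0.18 (-0.30 to -0.06), just short of the threshold (adjusted p = 0.0537), with no overlap between the SPOC and GFP libraries. It passed with DESeq2 (0.036), with no filter on low counts (0.03) and when only the compared groups were fitted (0.0081). With Dox+Auxin 2 were higher and 1 lower (24.6% called, 11.2% higher and 13.5% lower): Ccnd2 and Ccnd3 as above, and Cdkn1b (-0.19 ± 0.06, adjusted p = 0.025). The member medians were 0.02, -0.03 and 0.09 in untreated, Dox and Dox+Auxin cells, against all-gene medians of 0.002, 0.01 and 0.002. Ccnd1 in untreated cells passed with DESeq2 (0.24, adjusted p = 0.035), and Ccnd3 with Dox passed with no filter (-0.11, adjusted p = 0.034) and without SPOC replicate 3 (0.015). Several of these calls were lost when 1 library was left out. In untreated cells, the Ccne2 call was lost without GFP replicate 1 or 2 or SPOC replicate 5 (adjusted p 0.0545 to 0.074), the Cdk4 call without GFP replicate 2 (adjusted p = 0.084) or with no filter on low counts (0.11) and the Ccne1 call without GFP replicate 3 or 4 or SPOC replicate 4 (adjusted p 0.059 to 0.075). With Dox, the Ccnd1 call was lost without GFP replicate 1, 3 or 4 or SPOC replicate 1, 2, 3 or 5 (adjusted p 0.061 to 0.14), with no filter (0.15) and when only the compared groups were fitted (0.066), and the Ccne1 call without GFP replicate 1 or 2 or SPOC replicate 2 or 4 (adjusted p 0.056 to 0.078). With Dox+Auxin, the Cdkn1b value was -0.12 without GFP replicate 1 (adjusted p = 0.18), and its call was also lost without SPOC replicate 4 or 5 (adjusted p 0.057 to 0.078) and when only the compared groups were fitted (0.071).

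Genes around the G1 cyclins were followed in lists, each given by its count of called genes and its median. With Dox+Auxin against untreated cells 33.3% of all genes were called in SPOC and 38.2% in GFP, and with Dox+Auxin against Dox 32.0% and 47.6%; a list's count near these shares says nothing of that list. Of the other 6 CDK inhibitor genes, 2 rose and 1 fell with Dox+Auxin against untreated cells in SPOC (median log2 fold change 0.09, against -0.01 over all genes), and 3 rose and 1 fell in GFP (median 0.14, against -0.003). Cdkn1c, which encodes p57, rose by 0.42 ± 0.13 in SPOC (adjusted p = 0.010) and by 1.02 ± 0.14 in GFP (adjusted p = 4.5e-07). Cdkn2b, which encodes the CDK4 and CDK6 inhibitor p15, rose by 0.41 ± 0.09 in SPOC (adjusted p = 6.0e-04) and by 0.73 ± 0.10 in GFP (adjusted p = 4.9e-07). Cdkn1c averaged 4.90 ± 0.67 CPM with Dox+Auxin and 3.66 ± 0.38 CPM untreated in SPOC, and 6.55 ± 0.27 and 3.21 ± 0.10 CPM in GFP. The gene that fell in SPOC was Cdkn1a, by 0.26 ± 0.05 (adjusted p = 2.9e-04). It was far more abundant, at 198 ± 7.5 CPM with Dox+Auxin and 236.5 ± 21.8 CPM untreated in SPOC. For the line by treatment term against untreated cells 0 of these 6 genes were called, where 2.4% of all genes were. Against Dox 1 of the 6 was called, where 8.14% of all genes were: Cdkn2c, which encodes p18, at 0.51 ± 0.14 (adjusted p = 0.021).

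Of 13 pocket protein and E2F genes, 4 rose and 3 fell with Dox+Auxin against untreated cells in SPOC and 4 rose and 4 fell in GFP, with medians of -0.01 and -0.02. Rb1, the RB gene itself, rose by 0.27 ± 0.07 in SPOC (adjusted p = 0.0036) and by 0.40 ± 0.08 in GFP (adjusted p = 1.4e-04). E2f5 rose by 0.29 ± 0.04 in SPOC and 0.47 ± 0.04 in GFP, and Tfdp2, a partner of E2F proteins, fell by 0.18 in SPOC and by 0.33 in GFP. Of 15 genes for CDK2, its activators and the turnover of G1 cyclins, 2 rose and 3 fell in SPOC and 4 rose and 2 fell in GFP in the same comparison (medians 0.02 and 0.05), shares close to those over all genes. Fbxw7, which targets cyclin E for degradation, rose by 0.11 ± 0.03 in SPOC and by 0.18 ± 0.03 in GFP.

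Of 20 S phase genes known as E2F targets, 1 rose and 2 fell in SPOC with Dox+Auxin against Dox (median 0.005, against -0.01 over all genes), and 0 rose and 13 fell in GFP (median -0.11, against 0.004). Uhrf1, which maintains DNA methylation at replication, fell by 0.23 in SPOC (adjusted p = 0.0022) and by 0.38 in GFP (adjusted p = 1.8e-05). Tk1, thymidine kinase, fell by 0.33 in GFP (adjusted p = 1.8e-07), and its response differed between lines (0.27, adjusted p = 0.0029). In the test of that difference 5 of the 20 genes were called, all with the higher value in SPOC, where 8.14% of all genes were called. Against untreated cells, 4 rose and 3 fell in SPOC and 2 rose and 5 fell in GFP. For a difference between lines there, 0 of 20 were called, and 2.4% of all genes. Dox alone gave 2 that rose and 1 that fell in SPOC, near the share over all genes (13.5% called, 6.16% higher and 7.33% lower). In GFP it gave 7 that rose and 0 that fell (20.9% of all genes called, 10.1% higher and 10.8% lower). Of 15 G2 and M phase genes, 1 rose and 0 fell in SPOC and 3 rose and 4 fell in GFP with Dox+Auxin against Dox, and 2 rose and 0 fell in each line against untreated cells.

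Genes that report on the signals upstream of D cyclins moved in both directions. Of 11 tested ERK output genes, 1 rose and 8 fell in SPOC with Dox+Auxin against untreated cells (median -0.80), and 2 rose and 5 fell in GFP (median -0.34). Some of these were near the floor: in SPOC Dox+Auxin and untreated libraries Etv4 averaged 0.211 and 0.473 CPM and Egr1 0.158 and 0.344 CPM. The line by treatment term called 0 of the 11 against untreated cells (2.4% of all genes). Against Dox it called 2 higher and 1 lower in SPOC (8.14% of all genes called). Dusp6, an ERK phosphatase induced by ERK, fell by 1.48 in SPOC and by 2.24 in GFP with Dox+Auxin against Dox (adjusted p = 8.4e-11 and 5.1e-14), to 2.62 ± 0.48 CPM in SPOC Dox+Auxin, against 7.28 ± 0.82 in SPOC Dox, and to 1.83 ± 0.08 CPM in GFP Dox+Auxin, against 8.65 ± 1.12 in GFP Dox. With Dox against untreated cells Dusp6 rose by 0.53 ± 0.11 in SPOC and by 0.70 ± 0.12 in GFP. Of the 11 genes, 4 rose and 0 fell there in SPOC (13.5% of all genes called). In GFP 3 rose and 1 fell (20.9% called), and the gene that fell was Dusp4, by 0.49. The relation of these genes to Ccnd1 was not tested. Of 10 tested beta-catenin output genes, 2 rose and 2 fell in SPOC and 4 rose and 2 fell in GFP with Dox+Auxin against untreated cells (medians -0.06 and 0.16). Axin2, a direct target of that pathway, rose by 0.44 ± 0.04 in SPOC and by 0.68 ± 0.04 in GFP, and Lef1 fell by 1.43 in SPOC and by 1.01 in GFP.

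Of 11 MYC family and FOXO genes, 1 rose and 4 fell in SPOC and 1 rose and 3 fell in GFP in that comparison (medians -0.10 and -0.006). Myc fell by 0.37 in SPOC (adjusted p = 0.027) and by 0.95 in GFP (adjusted p = 2.7e-05), while its relative Mycn rose by 0.19 ± 0.03 in SPOC and by 0.23 ± 0.04 in GFP. Against Dox, Myc fell by 0.56 in SPOC and by 1.28 in GFP, and that response differed between lines (0.73, adjusted p = 0.025). Foxo4, of a family of factors known to activate Cdkn1b, fell with Dox against untreated cells by 0.61 in SPOC and by 0.67 in GFP; it is an X-linked gene.

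**Figure D4:**
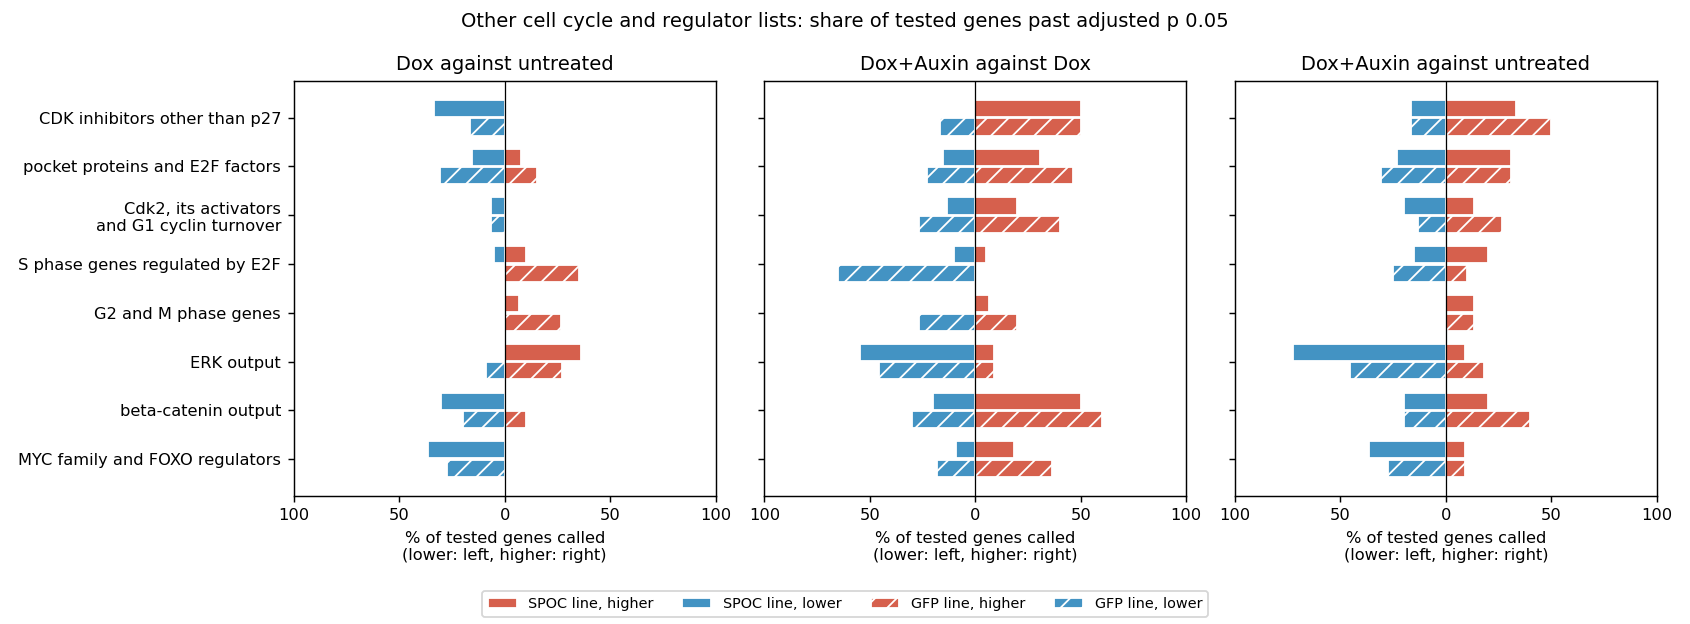
Share of the tested genes of 8 lists (rows) called higher (red, right) or lower (blue, left) in 3 treatment comparisons, for the SPOC line (plain bars, upper) and the GFP line (hatched bars, lower); the x axis is a percentage of the list. The S phase list has 13 of 20 genes lower in GFP Dox+Auxin against Dox, and the ERK list has 8 of 11 lower in SPOC and 5 of 11 lower in GFP with Dox+Auxin against untreated.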

How the data were processed

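The 27 RNA libraries of TX1072 cells were assigned to 6 groups from the sample titles. Tools in the submitters' processing notes are featureCounts, STAR (2.5.3a), DESeq2 (1.18.1), Trim Galore (0.4.4) and Picard (2.18.2), listed without roles, for mm10. No source used here gives the annotation or strand setting. The deposited table holds raw counts per gene over both alleles, as deposited by the authors, and columns headed RPKM, used here as a signal: the authors' deposited signal was 34.6 times the CPM per kilobase (median ratio), and served only to check gene lengths. The 54 allele-specific columns were not used. GENCODE M21 (GRCm38) held 53706 of 53801 IDs.

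After filterByExpr (18363 genes left) and TMM scaling, edgeR 4.0.16 in R 4.3.3 fitted 1 term for each of the 6 groups to all libraries together; its robust quasi-likelihood test was Benjamini-Hochberg adjusted over all genes in each of 12 comparisons. The SE came from the fold change and F statistic, and 95% intervals are normal intervals from it. RPKM used the merged length of all annotated exons of each gene. CPM are TMM-scaled; profiles used log2 CPM with a prior count of 2. The steps were tested on simulated data. Alternatives were DESeq2 1.42.0, its size factors, other filters, the compared groups alone, a replicate block and leaving out each library. In GFP Dox+Auxin with GFP untreated all 4 same-numbered pairs of libraries deviated together (correlations 0.103 to 0.214), and no member's call changed under the block there. Same-numbered SPOC libraries had correlations of up to 0.462. Both are hints of pairing from the data, and the main tests used no pairing in either line. The naming rule took all 8 members and, from each list, at most the 3 called genes with the largest change per comparison; Rb1, E2f5, Mycn and the others named all fall under it. Members and lists were chosen with earlier results of these data known. P-values measure the spread between libraries called biological replicates in the design text; the lowest chi-square per gene between libraries of a group was 1.76, above sampling noise, so none was counted as a duplicate.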

Additional observations from a re-analysis of the deposited data

Results flagged for a closer look

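Of 48 member and group pairs checked for a library far from the rest, 3 stood out, and chance gives about 1 in 20. Cdk6 was at 82.1 CPM in SPOC Dox replicate 3, against 60.8 to 65.2 CPM in the other 4 libraries, a gap of 0.793 of the range. It was at 78.2 CPM in SPOC untreated replicate 3, against 64.6 to 67.6 CPM in the others, a gap of 0.783 of the range. Cdkn1b was at 36.1 CPM in SPOC Dox replicate 4, against 38.8 to 39.9 CPM in the others, a gap of 0.725 of the range.

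The response to treatment differed between the lines, by the line by treatment term of edgeR, in 3 results. Ccnd3 fell less in SPOC than in GFP with Dox+Auxin against Dox (difference of log2 fold changes 0.31) and against untreated cells (0.28), and Ccne1 with Dox+Auxin against Dox differed by 0.15, of which the fold change itself passed in GFP only.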

How the results depend on the processing

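Of 96 member results, DESeq2 kept 92 on the same side of the threshold and 4 were newly called: Cdk6 in SPOC Dox+Auxin against Dox, Ccnd1 and Cdkn1b in SPOC against GFP, untreated and with Dox in that order, and the Ccne1 term of Dox+Auxin against untreated (0.15, adjusted p = 0.045). DESeq2 size factors kept 96, a filter at a mean of 1 CPM 95 (1 newly called, Cdk6 again), no filter 89 (5 calls lost, 2 newly called), the compared groups alone 90 (4 lost, 2 newly called) and the replicate block 84 (12 newly called, 0 lost). No called value changed sign. New calls were Ccnd3 and Cdkn1b in SPOC against GFP with Dox with no filter, and Cdkn1b there and Ccnd1 in GFP Dox+Auxin against Dox with the compared groups alone. The lost calls are named with the results above, and the cause was not tested.

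Members called under the replicate block were 6 for SPOC Dox+Auxin against Dox, 5 for SPOC against GFP with Dox+Auxin, 3 for the line by treatment term of Dox+Auxin against untreated and 2 for that of Dox against untreated. In SPOC Dox+Auxin against Dox the block added Cdk6 (-0.20, adjusted p = 5.1e-05), Ccne2 (0.11, 0.0045) and Ccnd1 (0.09, 0.018), and in GFP Ccnd1 (0.17, 5.0e-05). For SPOC against GFP the block was instead 1 term per replicate number shared by both lines, and replicate 5 had no GFP partner. Same-numbered untreated libraries of the 2 lines had correlations of -0.052 to 0.048, so pairing across lines has no basis there. This shared block added Ccnd1 untreated (0.0085; 0.17, against 0.24 without it), Ccnd3 with Dox (0.015), and Ccnd1 (0.036) and Ccne2 (0.034) with Dox+Auxin. The line by treatment terms that the block within each line added were Ccne1 for Dox+Auxin (0.017) and Ccne2 for Dox (0.039) against untreated. Under that block the Ccnd2 term passed, at 0.72 for Dox (adjusted p = 0.024) and 0.65 for Dox+Auxin (0.042) against untreated. Beyond GFP Dox+Auxin with GFP untreated, the numbers did not pair any 2 groups with every correlation over 0.1: over all groups of a line, correlations of same-numbered libraries were over 0.1 in 10 of 15 pairs in SPOC and 6 of 12 in GFP, and a library matched its own number best in 26 of 30 cases in SPOC and 14 of 24 in GFP, a hint from the data and not from the design. DESeq2 called 2 members for the term of Dox+Auxin against untreated, and no filter and the compared groups alone each called 1 for that of Dox+Auxin against Dox.

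Over all genes the block called 4145 for SPOC Dox against untreated (2478 without it). For the line by treatment terms it called 2006 (441 without) for Dox+Auxin against untreated, 3317 (1495 without) for Dox+Auxin against Dox and 294 (44 without) for Dox against untreated. DESeq2 called 810 and 89 for the first and last of these terms, and the compared groups alone 211 for the first.

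With 1 library left out, members called ranged from 3 to 4 for SPOC Dox+Auxin against untreated, 2 to 4 for SPOC Dox against untreated and 3 to 5 for SPOC Dox+Auxin against Dox, and from 4 to 5, 3 to 3 and 5 to 5 in GFP. They ranged from 2 to 4, 1 to 3 and 2 to 5 for SPOC against GFP untreated, with Dox and with Dox+Auxin. The highest counts were 5 for SPOC Dox+Auxin against Dox without Dox replicate 5, where Cdk6 and Ccne2 also passed, and 5 for SPOC against GFP with Dox+Auxin without GFP replicate 3, where Ccne2 and Cdk4 also passed. The line by treatment terms gave 1 to 1, 1 to 2 and 0 to 0. All genes called ranged from 1035 to 2171 for SPOC against GFP untreated (lowest without GFP replicate 2), 1260 to 2078 with Dox (lowest without GFP replicate 2) and 207 to 865 for the term of Dox+Auxin against untreated (lowest without GFP untreated replicate 4, highest without GFP Dox+Auxin replicate 4); in no other comparison did they move by over 1.5 times.

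Ccnd2, at 26 to 270 counts per library, is the member whose precision depth limits most.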
